A study of Mus musculus with 4 samples.

Results

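The natriuretic peptide system of the embryonic ventricle was described through 5 genes, chosen by their symbols among the 32285 genes of the deposited matrices. They were the ligand genes *Nppa* and *Nppb* and the receptor genes *Npr1*, *Npr2* and *Npr3*. Droplet single-cell RNA sequencing had been done on ventricles of E14.5 mouse embryos on a C57BL/6 background, in 4 libraries that each pooled the ventricles of 3 embryos. Embryos of both sexes were used and none was treated. Control libraries (controls 1 and 2 below) were Tie2Cre; *Ets1* fl/+ and endothelial knockouts (*Ets1* eKO, knockouts 1 and 2 below, numbered by replicate) were Tie2Cre; *Ets1* fl/fl. All embryos thus carried Tie2Cre, which recombines floxed alleles in endothelial and blood lineages, and controls carried 1 floxed allele of *Ets1*. The labels place the 4 libraries in 1 batch.

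Cardiomyocytes release atrial natriuretic peptide, encoded by *Nppa*, and B-type natriuretic peptide, encoded by *Nppb*, and in the developing ventricle *Nppa* is a classical marker of trabecular myocardium. *Npr1* and *Npr2* encode receptors with an intracellular guanylyl cyclase that makes cyclic GMP, *Npr1* for both of these peptides and *Npr2* for C-type natriuretic peptide. *Npr3* encodes a receptor without a cyclase domain that takes up and clears the peptides, and it is a classical marker of endocardium.

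The matrices hold counts of unique molecular identifiers (UMIs), each a tag of 1 captured transcript. The totals were 124140739 and 76931208 UMIs in controls 1 and 2 and 95131419 and 102872196 in knockouts 1 and 2. Cells with at least 2000 UMIs numbered 9792 and 6490 in controls and 7862 and 12238 in knockouts. Pairs of libraries shared between 19 and 47 barcodes, at most 0.44% of the smaller library of a pair. Cells were assigned to classes by gates, which are limits on the UMIs of marker gene lists after each cell had been thinned to 2000 UMIs. None of the 5 genes was in a gate. The coronary gate list holds *Cldn5* and the endothelial list *Kdr*, which the authors report as lower in coronary endothelium of knockouts. Whether this moved cells between the endothelial classes was not tested. Levels are UMIs of a gene per 1000000 UMIs of a class in a library (CPM), and a difference was called where edgeR gave it an adjusted p (Benjamini-Hochberg, over all genes tested) under the threshold of 0.05, with 2 libraries per group.

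The gates held cells with the markers they were named for. The 3 compact genes summed to a mean of 4373 CPM in compact and 134 in trabecular cardiomyocytes, and the 5 trabecular genes to 21.4 and 673. The 8 endothelial genes summed to 3722 in endocardium and 3821 in coronary endothelium, where the 7 coronary genes stood at 316 and 9572. Epicardial genes summed to 3422 in epicardium, mesenchymal genes to 7006 in mesenchyme, mural genes to 3631 in mural cells, leukocyte genes to 12182 in leukocytes and cardiomyocyte genes to 45817 in cardiomyocytes. These are gate genes, so their levels describe the classes only. The gates gave 5396, 2792, 3984 and 6381 cardiomyocytes in controls 1 and 2 and knockouts 1 and 2.

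Each *Ets1* eKO library stood apart from the others in 1 ligand gene, knockout 2 in *Nppa* and knockout 1 in *Nppb*. knockout 2 was shallow, with a median of 6510.5 UMIs per cell against 9807.5 to 10645 in the other libraries. It also held more *Nppa* in leukocytes, read here as a guide to free RNA, the RNA that leaks from broken cells into all droplets. Leukocytes, which should lack the gene, held 53.2 and 15.3 *Nppa* CPM in controls, 25.6 in knockout 1 and 118 in knockout 2. knockout 1 was the lowest library for *Nppb* in cardiomyocytes, at 38.5 CPM against 90.2 to 112.

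*Ets1*, the deleted gene, was measured first in the same classes. In endocardium it stood at 285 and 271 CPM in controls and at 126 and 93.6 in knockouts, and in coronary endothelium at 374 and 322 against 172 and 129. Both knockouts were below both controls in each class. *Ets1* fell in endocardium (log2 fold change -1.28, SE 0.15, adjusted p = 0.00179) and in coronary endothelium (-1.13, SE 0.17, adjusted p = 0.00332). In mesenchyme it stood at 97.0 and 82.1 against 59.0 and 56.8, a difference that was not called (-0.54, adjusted p = 0.198) except with no filter (-0.55, adjusted p = 0.00737). Cardiomyocytes held 9.20 and 8.36 CPM in controls and 9.65 and 10.8 in knockouts.

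Over the 5 genes and 7 classes tested for an effect of *Ets1* eKO, 30 tests passed the filter on low counts. Of these, edgeR called 0, with 4 at an unadjusted p under the threshold, and DESeq2 called 0. The number called was 9 without knockout 1, 4 without knockout 2, 2 without control 1 and 0 without control 2. It was 1 with the replicate block, 1 with doublets kept, 2 of 35 with no filter and 0 in the remaining alternatives. Over the tests of all genes in the 7 classes, the share called was 0.502% in the main fit and 9.74%, 1.64%, 1.24% and 0.706% without these libraries in the same order. It was 0.957% with the replicate block, 0.37% with doublets kept and 1.42% with no filter. Among all genes, edgeR called 0 of 16586 (0%) in cardiomyocytes and 0 of 13364 (0%) in compact cardiomyocytes, where 1729 and 1028 had an unadjusted p under the threshold and DESeq2 called 33 and 5. It called 2 of 12030 (0.0166%) in trabecular cardiomyocytes, namely *Kctd16* and *Sorcs2*, named here after their values were seen. The share called was 2.42% in endocardium, 1% in coronary endothelium, 0.0676% in epicardium and 0.0821% in mesenchyme. The 4 tests of the 5 genes at an unadjusted p under the threshold were 1 in trabecular cardiomyocytes, 1 in coronary endothelium and 2 in mesenchyme. Of all genes, 1815 of 12030, 1342 of 11064 and 1759 of 14609 had such a p in these classes by edgeR.

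The median log2 fold change of the tested peptide and receptor genes was 0.35 in cardiomyocytes, 0.31 in compact, 0.63 in trabecular cardiomyocytes and -0.00 in endocardium. It was 0.89 in coronary endothelium (3 genes tested), 0.56 in epicardium (2 genes) and -0.40 in mesenchyme (5 genes). These medians include genes at the level of leukocytes, such as *Npr3* in compact and trabecular cardiomyocytes and *Nppa* and *Nppb* in endocardium. The median of all genes tested lay at 0.01 or 0.02 in these classes. Scaling by total UMIs in place of TMM moved the median of all genes by -0.11 in cardiomyocytes, -0.12 in trabecular cardiomyocytes and 0.20 between endocardium and coronary endothelium.

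**Figure D1:**
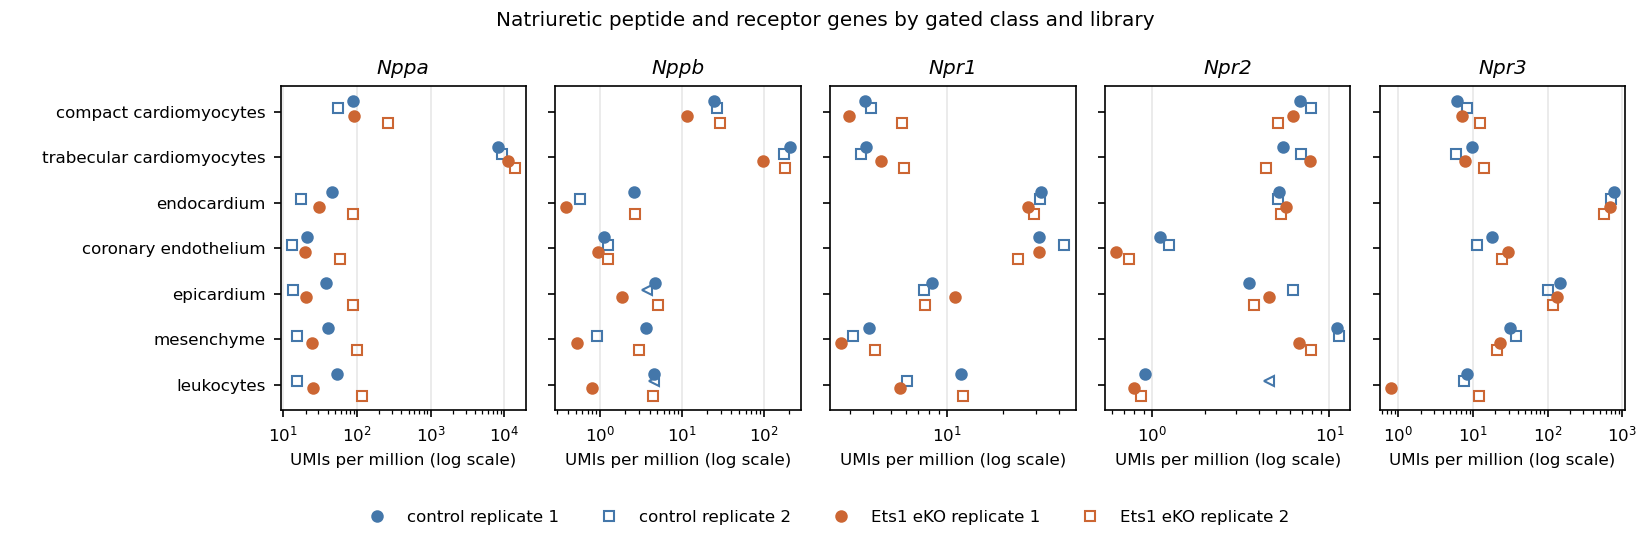
Levels of the 5 genes in 7 gated classes, in CPM on log axes, with 1 point per library (circles replicate 1, squares replicate 2; blue control, orange *Ets1* eKO). Triangles mark 0 counts, drawn at the floor of 3 counts, and among these classes *Nppa* and *Nppb* were highest in trabecular cardiomyocytes and *Npr3* in endocardium in all 4 libraries.

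*Nppa* had its highest mean level in trabecular cardiomyocytes. It was 8084 and 9308 CPM in controls 1 and 2 and 11163 and 13794 in knockouts 1 and 2. Compact cardiomyocytes held 89.4 and 54.4 in controls, and 90.3 and 262 in knockouts. The trabecular level was the higher in every library, with no overlap between the classes. *Nppa* was higher in trabecular than in compact cardiomyocytes by a log2 fold change of 6.58 (SE 0.41, adjusted p = 0.000956, 4 of 4 libraries), in a comparison in which 6682 of 12943 genes (51.6%) were called. *Nppb* passed this test too, so that 2 of the 5 genes were called, both higher in trabecular cells.

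Cardiomyocytes that reached both the compact and the trabecular minimum, 18 to 29 cells per library, held 8299, 374, 32.8 and 2288 *Nppa* CPM in the 4 libraries, so that control 1 carried their mean of 2748. Those in none of the compact, trabecular, atrioventricular canal and *Sln*-rich gates held 1497 ± 657 (SD, n = 4), and the values of these cells overlapped. *Sln*-rich cells, gated as cardiomyocytes with *Sln* and little *Myl2*, held 1293 ± 1164. Atrioventricular canal cardiomyocytes held 221 ± 379 and compact cardiomyocytes 124 ± 93.7. *Sln*-rich cells ranged from 84.1 in control 1 to 2855 in control 2, and these last 3 classes did not differ beyond their spread. knockout 2 alone raised the mean of the atrioventricular canal class, with 790 against 27.1 to 33.1 in the other libraries.

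Outside cardiomyocytes *Nppa* stood near the level of leukocytes. Leukocytes held 53.1 ± 46.4 CPM (SD, n = 4), endocardium 45.4 ± 30.7, mesenchyme 45.1 ± 38.5, epicardium 40.0 ± 33.8, mural cells 39.4 ± 35.3 and coronary endothelium 27.9 ± 20.7. None of these neighbours differed beyond its spread, and in each of the 6 classes control 2 was lowest and knockout 2 highest. *Nppa* was called higher in endocardium than in coronary endothelium (log2 fold change 0.53, adjusted p = 0.000402), but the level of leukocytes was higher than that of endocardium in 2 of 4 libraries and than that of coronary endothelium in 4 of 4. The 9 cardiomyocyte genes in leukocytes summed to 991, 409, 792 and 1037 CPM in the 4 libraries, with *Actc1* the most abundant and none at 0. Per 1000 UMIs of these 9 genes, leukocytes held 53.7, 37.3, 32.3 and 114 *Nppa* UMIs and all cardiomyocytes 37.1, 39.4, 34.2 and 68.3.

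Single cells showed the same split. After thinning to 2000 UMIs, 72.2% and 70.2% of trabecular cardiomyocytes of controls 1 and 2 and 74.8% and 80.6% of knockouts 1 and 2 had an *Nppa* UMI. The exact Clopper-Pearson 95% intervals ran from 64.7% at the lowest bound to 83.7% at the highest, and intervals cover counting error only. Both knockouts lay above both controls. The mean difference was 6.51 points, with an exact two-sided permutation p = 0.33, the smallest p that 2 against 2 libraries can give. In shares of cells, 18 of 55 pairs of gene and class had the 2 groups apart, in either direction. Wherever both knockouts lay above or below both controls, this order alone carries no more weight than that p. Without thinning the shares were 83.1%, 82.6%, 84.5% and 91.5%.

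In compact cardiomyocytes the share of cells with an *Nppa* UMI was above that of leukocytes in 4 of 4 libraries, with overlapping exact intervals in each. It was 9.92%, 6.55%, 8.06% and 21.6% in the 4 libraries, against 9.55%, 3.33%, 5.41% and 19.3% in leukocytes. Median depths before thinning were 12641, 13178.5, 13509.5 and 8355 UMIs in compact cardiomyocytes and 6395, 6970.5, 6294 and 3978 in leukocytes. The unthinned shares were 35.1%, 28.2%, 28.0% and 47.8% against 27.4%, 10.0%, 15.7% and 33.1%.

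**Figure D2:**
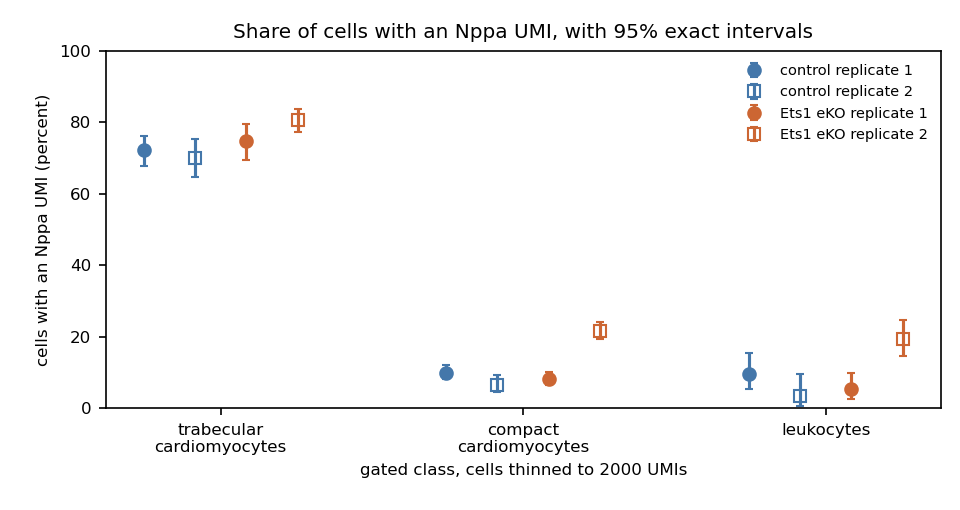
Share of cells with an *Nppa* UMI after thinning to 2000 UMIs, in percent, for 3 gated classes and 4 libraries, with exact 95% intervals as bars. Trabecular cardiomyocytes lay between 70.2% and 80.6%, and in each library the interval of compact cardiomyocytes overlapped that of leukocytes.

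The amount per cell set trabecular cardiomyocytes further apart. At least 10 of 2000 UMIs were *Nppa* in 43.2% and 47.2% of trabecular cells of controls and in 44.5% and 58.1% of those of knockouts. At least 50 were *Nppa* in 10.5% and 12.5% against 14.8% and 22.4%. The median trabecular cell held 6, 7, 7 and 15 *Nppa* UMIs in the 4 libraries and the highest 209, 181, 253 and 191. No compact cell held more than 39. Within trabecular cells, cycling cells had less *Nppa* than non-cycling cells in 4 of 4 libraries, at 6658, 8366, 7141 and 7399 CPM against 8746, 9973, 13305 and 15617, a difference that was not tested.

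*Nppa* also followed the gate genes in a graded way over cardiomyocytes. Only those with at least 4000 UMIs, and at most 1 UMI each of the atrioventricular canal list and of *Sln* per 4000, were grouped. With 0 UMIs of the compact gene *Tnnt1* per 4000 UMIs of the cell, *Nppa* stood at 2697 and 3134 CPM in controls and 2573 and 5005 in knockouts. With 15 or more *Tnnt1* UMIs it stood at 110, 103, 67.8 and 189. *Nppa* was lower in each next bin of *Tnnt1* in all 4 libraries. With 0 UMIs of the 5 trabecular genes it stood at 807, 586, 553 and 1314 and with 4 or more at 13355, 12349, 18499 and 19453. Trabecular cells by the gate held 35.1%, 52.0%, 47.0% and 35.5% of all *Nppa* UMIs of a library and all gated cardiomyocytes 91.0%, 91.3%, 93.3% and 85.9%. Cardiomyocytes in none of the compact, trabecular, atrioventricular canal and *Sln*-rich gates held 72912, 27810, 41741 and 96647 *Nppa* UMIs against 48822, 40528, 45740 and 75403 in trabecular cells, so that they held more in control 1 and knockout 2.

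**Figure D3:**
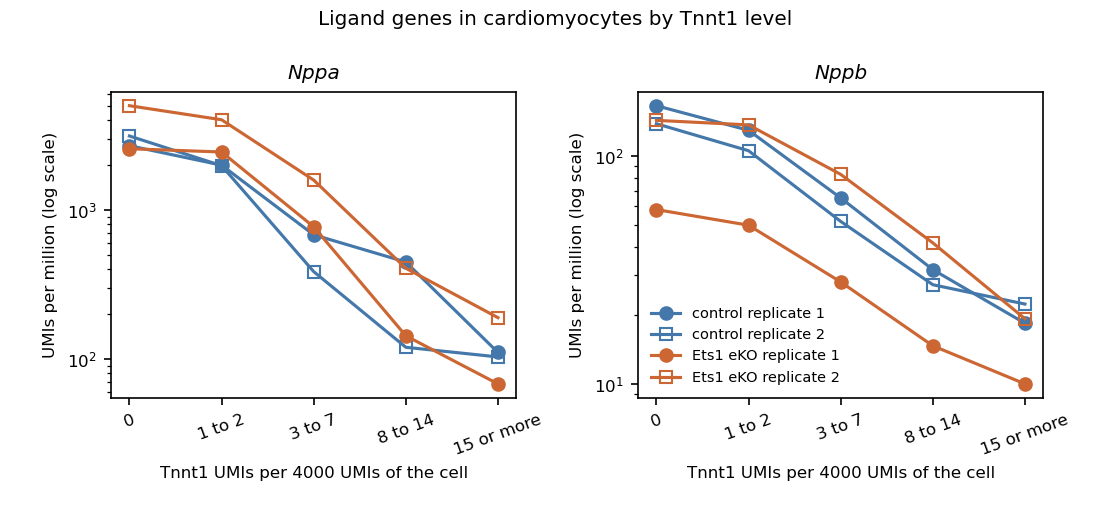
*Nppa* and *Nppb* in cardiomyocytes grouped by *Tnnt1* UMIs per 4000 UMIs of the cell, in CPM on log axes, with 1 line per library. Cells below 4000 UMIs, or with more than 1 UMI of the atrioventricular canal list or of *Sln*, were left out. Both genes were lower in each next bin in all 4 libraries, and knockout 1 ran lowest for *Nppb* throughout.

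Between the groups, *Nppa* in trabecular cardiomyocytes was higher in both knockouts than in both controls, but the difference was not called. The log2 fold change was 0.64 (SE 0.23, 95% interval 0.15 to 1.14, adjusted p = 0.276). It was called without knockout 1 (0.85, adjusted p = 4.54e-05), and it was 0.43 without knockout 2. The atrial list of 6 genes, led by *Myl7* and with none at 0, summed to 841 and 1399 CPM in trabecular cells of controls and to 911 and 1655 in knockouts. The dissociation response list of 6 genes, led by *Egr1* and with none at 0, summed to 1062 and 745 against 401 and 518, and its part in the *Nppa* values was not tested.

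Over all cardiomyocytes *Nppa* stood at 1699 and 1782 CPM in controls and at 1614 and 3075 in knockouts. The knockouts lay on both sides of the controls. The log2 fold change was 0.55 (SE 0.30, 95% interval -0.17 to 1.27, adjusted p = 0.477), and it was -0.02 without knockout 2 and 0.96 without knockout 1, where it was called (adjusted p = 0.00056). In compact cardiomyocytes the log2 fold change was 1.38 (SE 0.71, adjusted p = 0.652), with 0.40 without knockout 2 and a call without knockout 1 (1.95, adjusted p = 1.46e-14). knockout 2 was the highest library in compact cells as in leukocytes. The effects in trabecular and compact cells were not called different for *Nppa* (difference -0.58, adjusted p = 0.944) or for any other of the 5 genes, in a test with 9 of 12943 genes (0.0695%) called. DESeq2 called 3 of all genes and 0 of the 5, and at an unadjusted p under the threshold edgeR had 773 of all genes and 0 of the 5.

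*Nppb*, like *Nppa*, was highest in trabecular cardiomyocytes. It stood at 205 and 177 CPM in trabecular cardiomyocytes of controls and at 97.6 and 182 in those of knockouts. In compact cardiomyocytes it stood at 24.4 and 26.3 against 11.4 and 28.8. The trabecular level was the higher in 4 of 4 libraries, and knockout 1 was lowest in both classes. *Nppb* was higher in trabecular than in compact cells by a log2 fold change of 2.87 (SE 0.07, adjusted p = 2.58e-24).

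Atrioventricular canal cardiomyocytes had 20.1 ± 24.9 *Nppb* CPM (SD, n = 4) and *Sln*-rich cells 18.3 ± 24, against 22.7 ± 7.73 in compact cells. The first mean rested on knockout 2 (57.2) and the second on control 2 (53.4), and in its other 3 libraries each class lay below compact cells of the same library. Cardiomyocytes in none of the compact, trabecular, atrioventricular canal and *Sln*-rich gates held 95.4 ± 36.6, and those that reached both minimums 40.9 ± 39.8. Those in none of the gates held 6623, 2587, 1609 and 4601 of the 9154, 3846, 2309 and 6894 *Nppb* UMIs of the 4 libraries. Trabecular cells held fewer, with 1240, 771, 400 and 996. All classes outside cardiomyocytes had means of 2.90 or less, with overlapping values: 2.90 ± 2.41 in epicardium, 2.43 ± 2.37 in leukocytes, 2.01 ± 1.52 in mesenchyme, 1.56 ± 1.25 in endocardium, 1.14 ± 0.144 in coronary endothelium and 1.04 ± 1.22 in mural cells. In leukocytes these were 5, 0, 1 and 5 UMIs in the 4 libraries, and the floor of 3 counts in control 2 was 4.58 CPM. Per 1000 UMIs of the 9 cardiomyocyte genes, leukocytes held 4.63, 0, 1.01 and 4.19 *Nppb* UMIs and all cardiomyocytes 2.44, 2.00, 0.817 and 2.28.

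After thinning, 22.2% and 23.3% of trabecular cardiomyocytes of controls and 12.6% and 21.9% of those of knockouts had an *Nppb* UMI, with exact Clopper-Pearson 95% intervals of 18.5% to 26.3%, 18.7% to 28.4%, 9.17% to 16.8% and 18.6% to 25.4%. Both knockouts were below both controls, knockout 1 by far the more, and the mean difference of -5.51 points had an exact permutation p = 0.33. Compact cells had shares of 4.19%, 5.02%, 1.75% and 4.97% and leukocytes 1.91%, 0%, 0% and 0.394%, where 0 of 90 and 0 of 185 cells have exact upper limits of 4.02% and 1.97%. Median depths were 11960, 13036, 11596 and 8157 UMIs in trabecular cells, and the unthinned *Nppb* shares there were 52.4%, 51.1%, 37.9% and 49.7%. Most trabecular cells with *Nppb* also had *Nppa*: 86.5%, 87.3%, 92.5% and 85.5% in the 4 libraries, against 68.1%, 65.0%, 72.2% and 79.3% of the trabecular cells without *Nppb*.

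*Nppb* followed *Tnnt1* as *Nppa* did. With 0 *Tnnt1* UMIs it stood at 166 and 138 CPM in controls and 58.1 and 143 in knockouts, and with 15 or more at 18.5, 22.4, 10.0 and 19.3. The plot of both ligand genes by *Tnnt1* shows these steps. Cycling trabecular cells had less *Nppb* than non-cycling ones in 4 of 4 libraries, at 107, 160, 60.5 and 86.6 CPM against 261, 195, 114 and 221, and this was not tested.

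With all 4 libraries, *Nppb* was not called changed in any class in which it was tested. Over all cardiomyocytes it stood at 112 and 90.2 CPM in controls and at 38.5 and 103 in knockouts, so that the groups overlapped. The log2 fold change was -0.40 (SE 0.44, adjusted p = 0.696), and its direction rested on 1 library: it was 0.16 without knockout 1 and -1.30 without knockout 2, where it was called (adjusted p = 0.000649). In trabecular cells the log2 fold change was -0.31 (adjusted p = 0.576), with 0.11 and -0.90 (adjusted p = 0.0025) without these libraries in the same order. In compact cells it was -0.24 (adjusted p = 0.885), with 0.29 and -1.05 (adjusted p = 5.08e-06). The difference between the effects in trabecular and compact cells was -0.08 (adjusted p = 0.953).

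*Nppa* and *Nppb* are neighbours in the genome. On GRCm38 (GENCODE vM21) *Nppb* (ENSMUSG00000029019) lies at chr4:147985788-147987205 and *Nppa* (ENSMUSG00000041616) at chr4:148000722-148002079, both on the plus strand, with 13516 bases and 0 annotated genes between them. Of the gene IDs in the matrices, 32235 of 32285 matched this annotation. *Npr2* (ENSMUSG00000028469) lies far from them at chr4:43631935-43651244, *Npr1* (ENSMUSG00000027931) at chr3:90450591-90465866 and *Npr3* (ENSMUSG00000022206) at chr15:11839896-11907287. Annotated genes on the opposite strand overlap *Nppa* (*Gm13054*), *Npr1* (*Gm16048*), *Npr2* (*Gm12473*) and *Npr3* (*Gm5144*), and 0 genes on the same strand overlap any of the 5.

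Since the ligand genes were high in the same cells, their promoters are shown, as the 250 bases before the start of each gene from RefSeq (GRCm38.p6, plus strand): chr4:148000472-148000721 for *Nppa* and chr4:147985650-147985899 for *Nppb*. All 5 genes matched a RefSeq promoter. The RefSeq start of *Nppb* lies 112 bases after its GENCODE start. Capitals mark matches to 6 motifs searched on both strands. Factors of the GATA family bind motifs with the letters TGATAA or, in a variant of the same motif, AGATAA. The T-box motif was taken as TCACACCT, and the motif of the factor NKX2-5 had the letters AAGTG. The motif called M-CAT, which is bound by factors of the TEAD family, was taken as GGAATG. The letters of the TATA box near the start of many genes were TATAAA.
Nppa: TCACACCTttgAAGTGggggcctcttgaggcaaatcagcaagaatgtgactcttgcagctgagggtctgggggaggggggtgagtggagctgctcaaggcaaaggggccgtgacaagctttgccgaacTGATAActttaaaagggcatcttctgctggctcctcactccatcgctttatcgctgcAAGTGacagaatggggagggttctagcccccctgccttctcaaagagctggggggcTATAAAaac
Nppb: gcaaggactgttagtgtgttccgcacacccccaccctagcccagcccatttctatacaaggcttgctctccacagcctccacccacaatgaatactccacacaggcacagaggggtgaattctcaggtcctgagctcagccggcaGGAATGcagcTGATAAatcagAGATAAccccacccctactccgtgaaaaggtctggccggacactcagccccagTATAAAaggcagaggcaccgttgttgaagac

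Both promoters hold 1 TGATAA, which starts 122 bases before the start in *Nppa* and 95 before it in *Nppb*, and *Nppb* holds 1 AGATAA 84 bases before it. TGATAA was found in 7.94% and AGATAA in 9.99% of 32851 promoters of the same length, and either in 16.6%. *Nppa* holds 1 TCACACCT at its first bases (1.12% of promoters) and 2 AAGTG (40.7%), and *Nppb* holds 1 GGAATG (12.6%). TATAAA is in both (12.4% of promoters), 9 bases before the *Nppa* start and 31 before the *Nppb* start. These starts are those of RefSeq. All the *Nppb* matches lie after its GENCODE start, and so within the gene as placed above. The promoters of *Npr1*, *Npr2* and *Npr3* hold 0 matches to these letters in this window. A match is a description of letters and not a binding site.

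Genes for factors that act on these promoters in cardiomyocytes were read from a list of 12. In trabecular against compact cardiomyocytes, 8 of 12 were called, 4 higher and 4 lower, beside 51.6% of all genes. *Tbx5* was higher in trabecular cells (log2 fold change 1.73, adjusted p = 4.27e-18; 69.8 against 20.5 CPM) and so was *Irx4* (0.77, adjusted p = 6.43e-10). *Tbx20* was lower (-0.82, adjusted p = 5.57e-14; 265 against 460 CPM). *Hey2* was also lower, as a gene of the compact gate. Between the groups edgeR and DESeq2 called 0 of the 12 in cardiomyocytes, with 1 and 0 at an unadjusted p under the threshold. In trabecular cells these counts were 0 and 0 called, with 2 and 1.

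*Npr1* was an endothelial gene at a low level. It stood at 31.8, 31.6, 27.3 and 29.2 CPM in endocardium of controls 1 and 2 and knockouts 1 and 2, and at 31.1, 42.7, 31.3 and 24.1 in coronary endothelium. The endothelial classes overlapped, and every library lay above its own level in all other classes. Atrioventricular canal cardiomyocytes followed with a mean of 10.4 ± 3.49 (SD, n = 4), leukocytes with 8.95 ± 3.59, *Sln*-rich cells with 8.85 ± 5.91 and epicardium with 8.58 ± 1.67, which did not differ beyond their spread. Trabecular (4.33 ± 1.09) and compact cardiomyocytes (4.05 ± 1.19), mesenchyme (3.42 ± 0.63) and mural cells (1.87 ± 1.52) were below the leukocyte mean. Cardiomyocytes that reached both the compact and the trabecular minimum had a mean of 10.1 ± 12.8. It rested on control 2, at 29.3 CPM from 8 UMIs against 1 UMI in each other library.

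*Npr1* was called lower in endocardium than in coronary endothelium (log2 fold change -0.27, SE 0.11, adjusted p = 0.038), 1 of 4 peptide or receptor genes called in that comparison, in which 8422 of 13071 genes (64.4%) were. The call did not hold under 7 of 9 alternatives: it was -0.07 with total UMI scaling, and adjusted p rose to 0.076 without control 1, 0.249 without control 2 and 0.142 without knockout 1. After thinning, 5.92%, 7.65%, 6.84% and 5.72% of endocardial cells and 8.17%, 7.50%, 4.74% and 5.19% of coronary endothelial cells had an *Npr1* UMI, against 1.91%, 0%, 1.62% and 3.54% of leukocytes, where 0 of 90 has an exact upper limit of 4.02%. Exact 95% intervals of the endocardial shares ran from 4.58% to 9.74% over the libraries. The unthinned shares were 22.3%, 23.3%, 19.4% and 13.4% in endocardium.

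*Npr1* was not called changed by *Ets1* eKO in any class in which it was tested. In endocardium both knockouts were below both controls, by a log2 fold change of -0.10 (SE 0.14, 95% interval -0.42 to 0.22, adjusted p = 0.742). In coronary endothelium the groups overlapped in level (-0.31, SE 0.20, adjusted p = 0.568), while in the thinned shares above both knockouts were below both controls (-2.87 points, exact permutation p = 0.33). In cardiomyocytes *Npr1* stood at 4.70 and 3.78 CPM in controls and 4.30 and 5.72 in knockouts (0.35, adjusted p = 0.499). Both knockouts were above both controls in atrioventricular canal and *Sln*-rich cells, where the effect was not tested. The former held 6.63 and 8.27 CPM (7 and 11 UMIs) against 12.9 and 13.8 (7 and 7). The latter held 4.67 and 2.97 (2 and 2 UMIs) against 12.9 and 14.9 (13 and 8). In mural cells, also not tested, both knockouts were below both controls (2, 4, 1 and 0 UMIs).

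*Npr2*, the receptor gene for C-type natriuretic peptide, was low in all classes and highest in atrioventricular canal cardiomyocytes. These cells, 92, 111, 55 and 69 in the 4 libraries, held 20.8, 19.6, 23.9 and 19.7 CPM, from 22, 26, 13 and 10 *Npr2* UMIs. All 4 libraries were above every value in other classes. Mesenchyme came next with 9.24 ± 2.27 (SD, n = 4), followed without a gap beyond the spread by *Sln*-rich cells (6.89 ± 2.99), compact (6.53 ± 1.16) and trabecular cardiomyocytes (6.14 ± 1.51), endocardium (5.35 ± 0.237), mural cells (4.62 ± 4.58) and epicardium (4.54 ± 1.22).

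Coronary endothelium and leukocytes held the least *Npr2*, with means of 0.936 ± 0.295 and 0.647 ± 0.434 CPM (SD, n = 4) that did not differ beyond their spread. In coronary endothelium these were 5, 3, 2 and 3 UMIs in the 4 libraries and in leukocytes 1, 0, 1 and 1, where the floor of 3 counts for the 0 is 4.58 CPM. Endocardium held 48, 36, 44 and 50 *Npr2* UMIs. *Npr2* was higher in endocardium than in coronary endothelium by a log2 fold change of 2.30 (SE 0.33, 95% interval 1.6 to 3.01, adjusted p = 1.42e-05), in 4 of 4 libraries. Trabecular and compact cardiomyocytes were not called different for it (-0.13, adjusted p = 0.568).

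In mesenchyme *Npr2* stood at 11 and 11.4 CPM in controls and at 6.78 and 7.87 in knockouts. Both knockouts were below both controls. The difference was not called (log2 fold change -0.52, SE 0.18, adjusted p = 0.328). In endocardium *Npr2* stood at 5.23, 5.14, 5.68 and 5.33 (0.15, adjusted p = 0.782). Over all cardiomyocytes both knockouts were below both controls, with means of 4.51 ± 0.704 against 5.78 ± 0.822 CPM (SD, n = 2). The same order held in compact cells (5.68 ± 0.789 against 7.38 ± 0.733), while in trabecular cells the groups overlapped (6.10 ± 2.42 against 6.18 ± 1.01). None of these was called.

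*Npr3*, the clearance receptor gene, was highest in endocardium, at 776 and 705 CPM in controls and 685 and 564 in knockouts. Epicardium followed with 147 and 101 against 132 and 117. In all 4 libraries the endocardial level was above the epicardial level, and that above all other classes. Mesenchyme (28.2 ± 7.68, SD, n = 4) and coronary endothelium (20.6 ± 7.83) overlapped over the 4 libraries. Mesenchyme was the higher in both controls (means 34.3 against 14.5) and the lower in both knockouts (22.1 against 26.8), an order that was not tested.

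Cardiomyocytes that reached both minimums held 17.5, 47.6, 24.6 and 20.1 *Npr3* CPM in the 4 libraries, from 5, 13, 6 and 6 UMIs, above leukocytes in each. Other classes had *Npr3* near the level of leukocytes. Mural cells held 10.4 ± 6.53 CPM (SD, n = 4), trabecular cardiomyocytes 9.41 ± 3.56, compact cardiomyocytes 8.45 ± 2.74, atrioventricular canal cardiomyocytes 8.21 ± 13.6, leukocytes 7.22 ± 4.73 and *Sln*-rich cells 7.01 ± 14. Their values overlapped. Control 1 carried the means of atrioventricular canal cells, with 30, 1, 2 and 0 *Npr3* UMIs in the 4 libraries, and of *Sln*-rich cells, with 12 and then 0 in the other 3. The floor of 3 counts was 5.92 CPM for the former and 4.45, 2.97 and 5.59 CPM for the latter. Endocardium held 68.1%, 67.0%, 64.9% and 61.6% of all *Npr3* UMIs of a library.

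The epicardial *Npr3* was seen in cells without much endothelial RNA. The 8 endothelial genes summed to 31.8, 17.5, 24.8 and 94.7 CPM in epicardium, led by *Egfl7* and with none at 0, against a mean of 3722 in endocardium. The 6 other endocardial genes, led by *Tmem108* and with none at 0, were not specific in this way, with a mean of 3168 in epicardium and 4192 in endocardium. After thinning, 21.1%, 17.5%, 24.6% and 20.4% of epicardial cells had an *Npr3* UMI. The exact 95% intervals ran from 10.6% to 32.8%, and the unthinned shares were 48.6%, 51.5%, 57.5% and 38.3%.

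In endocardium, 67.2%, 65.3%, 66.7% and 61.7% of thinned cells had an *Npr3* UMI, against 0%, 0%, 0% and 1.18% of leukocytes, where 0 of 157, 90 and 185 cells have exact upper limits of 2.32%, 4.02% and 1.97%. The exact 95% intervals in endocardium ran from 59.4% to 70.0%. Median depths were 7084, 7528, 7017 and 4349 UMIs in endocardium, and the unthinned shares were 85.8%, 84.6%, 85.0% and 81.1%. At least 5 of 2000 UMIs were *Npr3* in 6.57% and 6.38% of endocardial cells of controls and in 4.06% and 2.50% of those of knockouts, so that the knockouts lay below the controls.

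Endocardial cells differed among themselves in *Npr3*. Those with at least 3 UMIs of 5 valve genes held 295, 341, 238 and 252 CPM, against 801, 768, 725 and 575 in those without valve UMIs. Valve-type cells were the lower in 4 of 4 libraries. Cycling endocardial cells held 412, 586, 512 and 458 against 836, 773, 749 and 604 in non-cycling cells, again lower in 4 of 4. Neither difference was tested.

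*Npr3* in endocardium was lower in both knockouts than in both controls, and the difference was not called (log2 fold change -0.18, SE 0.15, 95% interval -0.51 to 0.15, adjusted p = 0.534). The 6 other endocardial genes, led by *Tmem108* and with none at 0, summed to 4681 and 4545 CPM in controls and to 3935 and 3606 in knockouts. Per 1000 UMIs of these genes, *Npr3* had 166 and 155 UMIs in controls and 174 and 156 in knockouts, and these groups overlapped. The dissociation response list, led by *Jun* and with none at 0, summed to 1283 and 958 in endocardium of controls and to 581 and 582 in knockouts, and its part was not tested.

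In coronary endothelium *Npr3* ran the other way. It stood at 17.8 and 11.3 CPM in controls (80 and 27 UMIs) and at 29.4 and 24.1 in knockouts (93 and 97 UMIs). Both knockouts were above both controls. By edgeR the difference was not called (log2 fold change 0.89, SE 0.23, 95% interval 0.40 to 1.38, adjusted p = 0.0863), nor by DESeq2 (adjusted p = 0.545). It was called without control 1 (1.31, adjusted p = 0.0327), without knockout 1 (0.76, adjusted p = 0.0449), without knockout 2 (1.02, adjusted p = 0.00659), with the replicate block (0.96, adjusted p = 0.0251) and with no filter (0.89, adjusted p = 0.00754), 5 of 10 alternatives, but not without control 2 (0.66, adjusted p = 0.45). In non-cycling coronary cells the groups overlapped, at 24 and 23.5 *Npr3* CPM in controls (44 and 21 UMIs) against 40.3 and 19.4 in knockouts (49 and 25). In cycling cells the levels were 8.73 and 4.12 (13 and 4 UMIs) against 20.7 and 23.1 (25 and 31), and neither part was tested.

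The effect of *Ets1* eKO on *Npr3* differed between the endothelial classes. The effect in endocardium minus the effect in coronary endothelium was -1.07 on the log2 scale (SE 0.18, 95% interval -1.45 to -0.70, adjusted p = 0.00186). Both knockouts were lower in endocardium and higher in coronary endothelium than both controls. *Npr3* was 1 of the 5 genes called in this test, in which 182 of 13071 genes (1.39%) were called. The call held under 9 of 9 alternatives, with values from -1.44 to -0.89 and an adjusted p of at most 0.0158.

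**Figure D4:**
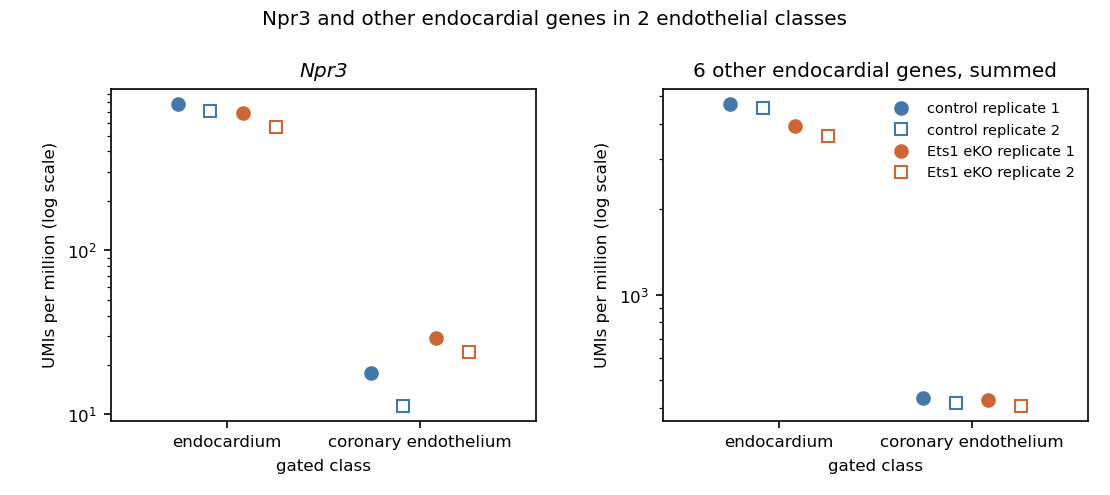
*Npr3* (left) and the sum of 6 other endocardial genes (right) in endocardium and coronary endothelium, in CPM on log axes, with 1 point per library. In coronary endothelium *Npr3* stood at 29.4 and 24.1 in knockouts and at 17.8 and 11.3 in controls, while the 6 other genes stood between 406 and 432.

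The coronary *Npr3* UMIs came from more than 1 cell in each library, but not evenly. Without thinning, 5, 0, 7 and 2 coronary cells in the 4 libraries held at least 5 *Npr3* UMIs each. In coronary endothelium 34 of 306 and 17 of 160 cells of controls and 36 of 253 and 59 of 462 cells of knockouts had an *Npr3* UMI, and the cell with the most held 11, 4, 9 and 5. After thinning, the shares were 1.96%, 1.25%, 4.74% and 4.33%, with exact 95% intervals of 0.723% to 4.22%, 0.152% to 4.44%, 2.47% to 8.14% and 2.66% to 6.61%. Both knockouts were above both controls and above their own leukocytes, at 0% and 1.18%, but in knockout 2 the interval overlapped that of leukocytes (0.244% to 3.41%). In controls 0 leukocytes had an *Npr3* UMI, with exact upper limits of 2.32% and 4.02%. The mean difference was 2.93 points (exact permutation p = 0.33), and the unthinned shares were 11.1%, 10.6%, 14.2% and 12.8% at median depths of 12684, 11972.5, 10027 and 6618 UMIs.

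Markers of endocardium were read in the same coronary cells. The 6 other endocardial genes, led by *Plagl1* and with none at 0, summed to 432 and 415 CPM in coronary endothelium of controls and to 425 and 406 in knockouts. The groups overlapped in them, and per 1000 of their UMIs *Npr3* had 41.2 and 27.2 UMIs in controls and 69.1 and 59.4 in knockouts. Coronary cells with an *Npr3* UMI held more of the 6 genes than those without, at 757, 730, 697 and 810 against 378, 377, 363 and 310. They held 7953, 7292, 9789 and 9960 CPM of the 7 coronary genes, against 9651, 8116, 10034 and 11080. Of endothelial barcodes, 4.33%, 5.03%, 4.81% and 3.50% lay between the coronary and endocardial limits and were in neither class.

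Between the endothelial classes themselves, *Npr3* was higher in endocardium than in coronary endothelium by a log2 fold change of 4.81 (SE 0.26, adjusted p = 0.000237), in 4 of 4 libraries. In mesenchyme *Npr3* stood at 30.9 and 37.7 CPM in controls and at 23.4 and 20.7 in knockouts. Both knockouts were below both controls there, and the difference was not called (-0.54, SE 0.14, adjusted p = 0.221) except without control 1 (-0.65, adjusted p = 0.0458) and with no filter on low counts (adjusted p = 0.0221). In epicardium the groups overlapped (0.07, adjusted p = 0.98), and the direction turned without control 2 (-0.17) and without knockout 1 (-0.02).

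Counts of cells were 1065, 784, 935 and 1802 in endocardium, 306, 160, 253 and 462 in coronary endothelium, 109, 97, 134 and 167 in epicardium and 1741, 1745, 1491 and 1641 in mesenchyme. Trabecular cardiomyocytes numbered 468, 305, 317 and 599, compact cardiomyocytes 907, 458, 856 and 1248 and leukocytes 157, 90, 185 and 254.

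Other genes of natriuretic peptide and cyclic GMP signalling were read from a list of 23. edgeR and DESeq2 each called 4 of the 19 tested in endocardium, by edgeR 2 higher and 2 lower in knockouts. Of all 13199 genes tested there, edgeR called 319 (2.42%) and DESeq2 308. *Gucy1a1*, a subunit of soluble guanylyl cyclase, rose from 35.6 ± 6.56 to 69.7 ± 8.35 CPM (SD, n = 2; log2 fold change 1.02, adjusted p = 0.00846). *Pde1a*, a phosphodiesterase that degrades cyclic nucleotides, rose from 9.95 ± 2.56 to 26.7 ± 3.24 (1.48, adjusted p = 0.00475). Both knockouts were above both controls for each of these.

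*Pde1c* and *Pde2a* encode further phosphodiesterases. *Pde1c* fell in endocardium from 122 ± 2.32 to 78.2 ± 1.91 CPM (SD, n = 2; -0.58, adjusted p = 0.0315), a call lost without control 1 (adjusted p = 0.0901), without control 2 (0.175) and with doublets kept (0.0528). *Pde2a* fell from 13.7 ± 0.613 to 5.82 ± 1.45 (-1.19, adjusted p = 0.0231), a call lost without knockout 2 (-0.96, adjusted p = 0.0576). Both knockouts were below both controls for each.

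In the other classes edgeR called 0 of the list: 0 of 20 in cardiomyocytes, 17 in compact and 16 in trabecular cardiomyocytes, 15 in coronary endothelium, 13 in epicardium and 20 in mesenchyme. DESeq2 called 1 of the list in cardiomyocytes and 0 in the other 5 classes. *Corin*, which encodes the protease that activates the *Nppa* product, stood at 136 ± 10.8 CPM in trabecular cardiomyocytes of controls and 75.0 ± 8.22 in knockouts (SD, n = 2). Both knockouts were below both controls. The difference was not called by edgeR (-0.75, adjusted p = 0.164), but it was without knockout 1 (-0.80, adjusted p = 0.000197), without knockout 2 (-0.68, adjusted p = 0.0196), with the replicate block (-0.75, adjusted p = 0.0488), with total UMI scaling (-0.87, adjusted p = 0.0256) and with no filter (-0.74, adjusted p = 0.00588), 5 of 10 alternatives. Over all cardiomyocytes DESeq2 called it (-0.72, adjusted p = 0.00346) and edgeR did not (-0.73, adjusted p = 0.459), except without knockout 1 (adjusted p = 0.000279), without knockout 2 (adjusted p = 0.00175) and with no filter (adjusted p = 0.0151).

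Between cardiomyocyte classes 14 of the 18 pathway genes tested were called, 7 in each direction, where 51.6% of all genes tested were. *Corin* was higher in trabecular than in compact cells (2.04, adjusted p = 2.67e-18), like the ligand genes, and so was *Pde3a* (1.16, adjusted p = 1.2e-11). *Mme*, which encodes the peptide-degrading neprilysin, was lower (-3.66, adjusted p = 5.68e-15; 1.19 ± 0.715 against 14.6 ± 2.31 CPM). *Nppc*, the gene of C-type natriuretic peptide, reached 23.6 ± 13.5 in epicardium and 1.46 ± 0.667 in endocardium.

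Between the endothelial classes 17 of 18 pathway genes were called, 11 higher in endocardium and 6 lower, where 64.4% of all genes tested were. The effect of *Ets1* eKO was called different between these classes for 1 of 18, *Prkg1*, which encodes a cyclic GMP-dependent kinase, where 1.39% of all genes tested were. *Prkg1* stood at 1417 ± 54.8 CPM in controls and 1289 ± 7.24 in knockouts in endocardium, and at 91.0 ± 0.886 and 121 ± 14.2 in coronary endothelium (SD, n = 2). The difference was -0.56 (SE 0.11, adjusted p = 0.00547), in the direction of that of *Npr3*, and its call was lost without knockout 1 (-0.45, adjusted p = 0.129) and under stricter gates (-0.25, adjusted p = 0.423). Of the factor genes 1 of 11 was called in this test, *Gata4* (-0.96, SE 0.23, adjusted p = 0.0319), lost by DESeq2 (adjusted p = 0.338), with doublets kept (adjusted p = 0.099), without control 1 (adjusted p = 0.191) and without knockout 2 (-0.72, adjusted p = 0.483).

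The genes most like a peptide or receptor gene were taken as those with the highest Pearson correlation of log2 levels over 40 sums, 10 classes in each of 4 libraries, among 10003 genes. Sums of 1 library share its depth and free RNA, so the values are descriptions. *Cited1* was most like *Nppa* (r = 0.895) and most like *Nppb* (0.918), and *Nppb* was second for *Nppa* (0.858). *Cited1* stood at 1694 ± 660 CPM in trabecular and 115 ± 34.1 in compact cardiomyocytes (SD, n = 4). *Gtsf1* followed for *Nppb* (0.914).

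For the receptor genes *Npr1* and *Npr3* the nearest genes were also read. They were *Gclm* (0.863) and *Kank3* (0.858) for *Npr1*, with *Kdr*, a gene of the endothelial gate, at 0.831. For *Npr3* they were *Ece1* (0.881), *Adgrg6* (0.878) and *Tek* (0.871). *Tek* shared with *Npr3* the order of endocardium (562 ± 110), epicardium (160 ± 25.1) and coronary endothelium (138 ± 16.3 CPM, SD, n = 4), though the last pair did not differ beyond the spread.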

How the data were processed

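Counts are the UMIs per gene and barcode that the authors made with Cell Ranger 7.1.0 on mm10 and deposited as 1 matrix per library, and the matrices were used without further correction. Members and gene lists were chosen with earlier results of these data known. Cells were kept with 200 to 7000 genes and at least 2000 UMIs, of which no more than 20% were mitochondrial, 35% were ribosomal and 2% came from hemoglobin genes.

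Each cell was thinned at random (without replacement) to 2000 UMIs, and cardiomyocytes also to 4000 UMIs to separate their states. Gates on lists of marker genes assigned classes: at least 40 cardiomyocyte UMIs of 2000, 4 endothelial (then at least 8 coronary UMIs for coronary endothelium and at most 3 for endocardium), 5 epicardial, 6 mesenchymal, 6 mural or 8 leukocyte UMIs. Per 4000 UMIs, compact cardiomyocytes had at least 8 compact and 0 trabecular UMIs, and trabecular ones at least 2 trabecular and at most 2 compact UMIs. Barcodes positive for 2 types (1.86% to 3.73% of a library) were left out, and 9.55% to 12.1% were in no class.

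UMIs were summed per class and library without thinning and tested with edgeR 4.0.16 (filterByExpr, TMM, quasi-likelihood, robust) under R 4.3.3, 2 against 2 libraries. Comparisons between classes took the library as a block, and a difference term tested whether effects differed between 2 classes. Alternatives were DESeq2 1.42.0, total UMI scaling, no filter on low counts, a replicate block, each library left out, stricter gates and doublets kept. Shares of cells were compared by exact permutation of libraries, two-sided. Sums, shares and plots were made in Python 3.11.15 (scipy 1.17.1, pandas 2.3.3, numpy 2.4.6, matplotlib 3.10.9).

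Genes named besides the members were *Ets1*, 23 genes of the pathway and 12 factor genes where they were called or carried a value of interest, gate and list genes, and genes among the 5 most like a member; those most like *Npr2* are not reported. The floor of a count of 0 is 3 counts.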

Additional observations from a re-analysis of the deposited data

Results flagged for a closer look

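The effect of *Ets1* eKO on *Npr3* differed between endocardium and coronary endothelium by -1.07 on the log2 scale, by a test of the difference term of the fit. The same test gave -0.56 for *Prkg1* and -0.96 for *Gata4*. Over all genes it called 182 between these classes, and 9 between trabecular and compact cardiomyocytes. The cause of these differences was not tested.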

How the results depend on the processing

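Of 45 single-gene results, 22 kept their direction and their side of the threshold in every alternative that gave a value. For results other than the counts and leading values of the comparisons, 371 values under alternatives were judged the same. Another 25 newly passed the threshold, 17 no longer passed it and 12 turned direction. Shares of cells were judged here by direction only, and counts of genes called between classes by their size. For the counts and leading values, 80 were judged the same, 67 counts moved, 3 values newly passed and 2 turned direction. The cause of each change was not tested.

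Genes called between the groups, with DESeq2 in place of edgeR, numbered 33 in cardiomyocytes (reported: 0), 5 in compact (0), 6 in trabecular cardiomyocytes (2), 53 in coronary endothelium (111), 0 in epicardium (6; edgeR had 468 at an unadjusted p under the threshold) and 115 in mesenchyme (12). The difference between effects had 3 genes in cardiomyocyte states (9) and 45 in endothelial classes (182). With total UMI scaling there were 1, 3 and 60 genes in cardiomyocytes, compact and trabecular cardiomyocytes, 534 in endocardium (319) and 57 in mesenchyme. With no filter on low counts there were 33, 54, 184, 1021, 291, 15 and 469 in cardiomyocytes, compact, trabecular, endocardium, coronary endothelium, epicardium and mesenchyme, and 39 and 341 for the differences.

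With the replicate block, which pairs libraries by their replicate number, there were 35, 25, 86, 526, 19 and 25 genes in cardiomyocytes, compact, trabecular, endocardium, epicardium and mesenchyme. The labels do not say that the numbers are pairs, and libraries of the same number correlated at -0.111, -0.103, -0.0685, -0.0261 and -0.11 in cardiomyocytes, compact, trabecular, endocardium and mesenchyme. Crossing the numbers, chosen after seeing the data, gave 23 genes in cardiomyocytes, 38 in compact and 231 in mesenchyme.

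Stricter gates gave 1 gene in compact, 8 in trabecular, 205 in endocardium, 0 in epicardium, 3 in mesenchyme and 5 for the difference in cardiomyocyte states, and doublets kept gave 184 in endocardium, 18 in epicardium, 3 in mesenchyme and 15 for that difference. Under stricter gates *Npr2* was 0.30 in trabecular against compact cells and the difference of *Nppb* 0.094, while *Npr1* and *Npr3* passed no filter in trabecular cells and gave no value.

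Leaving out 1 library at a time, with the lone library of a group assumed to vary like the other group, gave 7 to 2714 genes in cardiomyocytes, 0 to 1650 in compact, 40 to 2237 in trabecular, 359 to 1736 in endocardium, 86 to 756 in coronary endothelium, 10 to 61 in epicardium and 22 to 575 in mesenchyme. The differences ranged from 8 to 30 in cardiomyocyte states and from 108 to 364 in endothelial classes. *Nppa* ranged from -0.018 to 0.96 in cardiomyocytes and from 0.43 to 0.85 in trabecular cells. *Nppb* ranged from -1.30 to 0.16 in cardiomyocytes, -1.05 to 0.29 in compact and -0.90 to 0.11 in trabecular cells, and *Npr3* from -0.17 to 0.38 in epicardium. The difference between cardiomyocyte states ranged from -1.13 to 0.043 for *Nppa* and -0.23 to 0.14 for *Nppb*, and that between endothelial classes from -0.045 to 0.46 for *Npr1*. The share of cells changed by -0.176 to 13.4 points for *Nppa* in compact cells and -4.56 to 0.47 points for *Npr3* in endocardium.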
